A study of Mus musculus with 12 samples.

Results

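Cytochrome P450 genes of families 1 to 4 were followed in the livers of control and anemic mouse pups, gene by gene and subfamily by subfamily. They were taken by symbol from the gene table of the counts: every symbol that starts with Cyp, a digit from 1 to 4, a letter and a digit was kept, and pseudogene symbols were left out. This gave 81 of 32285 listed genes in 21 subfamilies, of which 80 are annotated as protein coding and 1, Cyp4x1os, is a long noncoding RNA. The 12 mice were C57BL6/J neonates, 1 library per mouse and 6 per group. Anemic mice had lost 20 µL of blood per gram of body weight on postnatal days 2, 4, 6, 8 and 10, which brought the hematocrit to 20 to 24% (phlebotomy-induced anemia, PIA). Control mice were handled alike and received a needle stick without blood loss. The labels name no transgene or drug in either group, and liver tissue was dissociated into single cells on day 11. Libraries made with the droplet-based 10x 3′ chemistry tag each captured mRNA molecule once with a unique molecular identifier (UMI), so that counts do not scale with transcript length.

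Cytochrome P450s are heme enzymes of the endoplasmic reticulum that insert an oxygen atom into their substrates with electrons from the reductase Por. Families 1 to 3 oxidize drugs, toxins, steroids and bile acids, and family 4 mostly hydroxylates the ends of fatty acids. The liver holds most of them, and many are zonated along the lobule, so that Cyp2e1 and Cyp1a2 are known as pericentral genes and Cyp2f2 as a periportal one. In mice several Cyp2a, Cyp2b, Cyp2c, Cyp2d, Cyp3a and Cyp4a genes also differ between the sexes, and some differ with age after birth.

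Many of the genes lie beside others of their subfamily, and some of these are close copies. On GRCm38 (GENCODE M21), the 15 Cyp2c genes lie on chromosome 19 between positions 39007019 and 44029208, the 9 Cyp3a genes on chromosome 5 between 137892932 and 146113287, and the 8 Cyp2d genes on chromosome 15 between 82370527 and 82794294. The 4 Cyp2a genes (26307169 to 27037375) and the 5 Cyp2b genes (25897620 to 26772630) are interleaved on chromosome 7. The 8 Cyp4a genes (115242084 to 115621602) and the 8 Cyp2j genes (96027534 to 96664154) are on chromosome 4, and 8 of the 9 Cyp4f genes are on chromosome 17 (32452723 to 32947402). Reads of close copies can be split or dropped in counting, so values of single genes within Cyp2a4 and Cyp2a5, Cyp2b9 and Cyp2b13, Cyp3a41a and Cyp3a41b, and the Cyp2c, Cyp2d and Cyp4a clusters are less certain than those of Cyp2e1, Cyp2f2, Cyp1a2 or Cyp4v3.

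The 250 bases before the annotated start of 5 genes are shown because these genes carry the contrasts described below: Cyp2e1 and Cyp2f2 moved in opposite directions, Cyp3a11 and the Cyp2b pair were lower in anemic mice. Sequences are from RefSeq (GRCm38.p6), 5′ to 3′ on the strand of the gene, with capitals marking the searched motifs. These locations are chr7:140763569-140763818 (plus strand) for Cyp2e1, chr7:27119705-27119954 (plus) for Cyp2f2, chr7:26173159-26173408 (plus) for Cyp2b9, chr7:26061245-26061494 (plus) for Cyp2b13 and chr5:145879855-145880104 (minus) for Cyp3a11. The GENCODE M21 starts of Cyp2e1 (140763739), Cyp2f2 (27119909) and Cyp3a11 (145879964) lie inside these windows. By that annotation the second CCAAT (printed as ATTGG), the ACGTG and the TATAAA of Cyp2e1 are within the gene.
Cyp2e1: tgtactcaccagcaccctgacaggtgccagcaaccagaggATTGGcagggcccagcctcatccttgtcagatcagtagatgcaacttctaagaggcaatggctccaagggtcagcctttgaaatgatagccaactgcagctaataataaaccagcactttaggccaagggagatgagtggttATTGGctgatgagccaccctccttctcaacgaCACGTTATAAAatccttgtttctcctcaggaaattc
Cyp2f2: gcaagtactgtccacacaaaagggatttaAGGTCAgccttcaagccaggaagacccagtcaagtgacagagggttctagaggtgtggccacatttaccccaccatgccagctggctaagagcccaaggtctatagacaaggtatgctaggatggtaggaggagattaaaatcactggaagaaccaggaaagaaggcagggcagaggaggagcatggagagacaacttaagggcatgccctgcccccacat
Cyp2b9: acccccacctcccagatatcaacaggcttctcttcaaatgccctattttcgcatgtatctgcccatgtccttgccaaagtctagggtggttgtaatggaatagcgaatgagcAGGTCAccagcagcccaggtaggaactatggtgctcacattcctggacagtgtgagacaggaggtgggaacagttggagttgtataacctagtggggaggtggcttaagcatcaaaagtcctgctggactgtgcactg
Cyp2b13: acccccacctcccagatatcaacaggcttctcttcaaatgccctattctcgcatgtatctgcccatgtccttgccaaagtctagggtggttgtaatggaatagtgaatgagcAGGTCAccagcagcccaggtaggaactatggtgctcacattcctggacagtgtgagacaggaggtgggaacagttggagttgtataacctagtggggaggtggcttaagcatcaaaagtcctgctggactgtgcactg
Cyp3a11: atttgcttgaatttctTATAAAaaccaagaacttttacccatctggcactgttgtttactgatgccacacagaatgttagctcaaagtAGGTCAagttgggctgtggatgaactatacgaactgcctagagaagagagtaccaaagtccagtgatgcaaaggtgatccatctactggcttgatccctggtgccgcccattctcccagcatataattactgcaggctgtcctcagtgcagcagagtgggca
Cyp2b9 and Cyp2b13 had the same base at 248 of 250 positions (99.2%). Motifs searched on both strands were GCGTG (the core bound by the aryl hydrocarbon receptor), ACGTG (the core of the hypoxia response element), AGGTCA (a nuclear receptor half-site), CCAAT and TATAAA. Cyp2e1 carried CCAAT on the minus strand at 2 places, ACGTG on the minus strand and TATAAA on the plus strand, and the last 2 of these adjoin. Cyp2f2, Cyp2b9 and Cyp2b13 each carried a single AGGTCA, and Cyp3a11 carried TATAAA and AGGTCA.

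Promoters were found in the table for 66 of the 81 genes. TATAAA was in 26 of the 66, against 12.4% of all 32851 promoters, and AGGTCA in 16 of the 66, against 14.0% of all. CCAAT was in 26 of the 66 (33.8% of all promoters), GCGTG in 12 (28.2%) and ACGTG in 4 (16.6%). Among the genes tested in hepatocytes below, ACGTG was in 0 of 9 promoters of genes called higher, 3 of 13 of genes called lower and 0 of 19 of genes not called, and GCGTG was in 1 of 9, 1 of 13 and 3 of 19. TATAAA was in 5 of 9, 6 of 13 and 10 of 19. A match says only that these letters are present in this window.

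Barcodes were kept from 500 up to 50000 UMIs if mitochondrial transcripts made up no more than 50% of them. The libraries then held 14184 to 21186 cells each and 206146 in all, with 45751640 to 74344118 UMIs per library. The 4951 cell barcode sequences that occurred in more than 1 library were treated as different cells. Cells were clustered without the 81 P450 genes, so that the cell classes do not depend on them. Classes were named from fixed markers and carry the suffix "-like". The 5 hepatocyte-like clusters (numbers 18, 20, 21, 22 and 23) held 18003 cells, 7582 from control and 10421 from anemic mice, 706 to 2785 per mouse, and all 10 hepatocyte markers were detected in them. They made up 8.73% of the cells and 5.28% of the UMIs, and held 62.5% of the 355334 UMIs of the P450 genes. Sex was read from Xist and Y-linked genes: 4 control mice were female and 2 male, and 2 anemic mice were female and 4 male. Anemia replicates 2 and 3 stood apart from the other mice: their monocyte-like cells held 14127400 and 5588870 tested UMIs, against 448047 to 1253030 in the other 10. Results were therefore also computed with both left out, an alternative chosen after the data had been seen.

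The hepatocyte-like cells of the 2 groups differed in more than the P450 genes. Mitochondrial UMIs were 9.98 to 11.3% of all UMIs in control and 3.24 to 6.84% in anemic mice, globin UMIs 0.161 to 0.810% and 0.867 to 2.92%, and Alb 3.55 to 3.92% and 1.63 to 2.99%. Cluster 18, whose cells carried a mean of 16.1% mitochondrial UMIs and were called doublets at 33.2%, held 29.0 to 38.3% of the control and 8.94 to 16.3% of the anemic hepatocyte-like cells. Cluster 22, with a median of 750 UMIs per cell, held 9.07 to 17.2% and 17.7 to 40.3%. Levels are CPM: the UMIs that each mouse had in a class were scaled to a total of 1000000. Summed markers of other cells were also unequal: all 8 endothelial markers were detected and summed to 455 to 712 CPM in control and 85.2 to 236 CPM in anemic mice, all 7 stellate markers to 439 to 716 and 29.4 to 173 CPM, all 6 monocyte markers to 1051 to 1311 and 553 to 704 CPM, and all 7 erythroid markers to 1344 to 6533 and 7008 to 23936 CPM. These were the 4 of 14 lists of other cells whose sums did not overlap between groups. The monocyte list includes Fn1, and which of its genes carried the sum was not tested. Monocyte-like cells themselves numbered 1778 in control and 7408 in anemic mice, so this sum is not read as monocyte RNA. The part of these differences in the results was not tested, and the main genes are given within single clusters as well.

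In control hepatocyte-like cells the P450 genes took 0.646 to 0.707% of all UMIs. The subfamily sums are CPM without further scaling. Cyp2c led with a summed level of 1675 ± 86.6 CPM (SD, n = 6), followed by Cyp2e with 1514 ± 170.0 CPM and Cyp3a with 1283 ± 51.7 CPM. Cyp2d followed with 842 ± 45.5 CPM, Cyp2a with 370.0 ± 21.5 CPM, Cyp2b with 346 ± 40.7 CPM, Cyp4a with 308 ± 56.7 CPM, Cyp1a with 189 ± 24.9 CPM and Cyp2j with 111 ± 11.7 CPM. Single mice overlapped between the neighbours Cyp2c and Cyp2e, Cyp2e and Cyp3a, Cyp2a and Cyp2b and between Cyp2b and Cyp4a. The other subfamilies reached at most 78.2 CPM, the level of Cyp4f. Cyp2c, Cyp2e and Cyp3a gave 24.5%, 22.3% and 18.8% of the P450 UMIs.

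In anemic mice the P450 genes took 0.341 to 0.520% of the UMIs of hepatocyte-like cells, below every control mouse. In bulk sums of this kind, fewer expressing cells and less RNA per cell cannot be told apart. Cyp2c led with 1440.0 ± 228 CPM and 31.7% of the P450 UMIs, while Cyp2e stood at 444 ± 103 CPM and 10.0%. Cyp3a gave 18.5% at a summed level of 820.2 ± 164 CPM. Cyp2d stood at 531 ± 49.5 CPM, Cyp2b at 124 ± 44.4 CPM and Cyp1a at 90.8 ± 25.3 CPM. Of the 9 subfamilies named, only Cyp4a had a higher mean than in control in these sums without further scaling, 401 ± 117 CPM. Its share of the P450 UMIs was 4.58% in control and 9.28% in anemic mice. Cyp2a had a mean of 363 ± 60.3 CPM and Cyp2j of 95.7 ± 22.2 CPM. These sums carry no test. Single genes of the whole hepatocyte-like class are scaled below to the UMIs of the tested genes, without mitochondrial and ribosomal protein genes. These were 2550390 of 3006011 UMIs in control replicate 1 and 3287180 of 3752055 in anemia replicate 1, for example. The values are also divided by further scaling factors, 1.09 to 1.19 in control and 0.858 to 0.945 in anemic mice. On that scale the small differences of Cyp2a, Cyp2c and Cyp2j may turn.

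Gene by gene, UMIs were summed per mouse, scaled by the trimmed mean of M-values (TMM) and tested with the quasi-likelihood test of edgeR over the 11942 genes that averaged 5 or more UMIs in the 12 mice. A gene was called at a Benjamini-Hochberg adjusted p under 0.05. Of the 81 P450 genes, 50 could be tested. Of those, 14 were called higher in anemic mice (25.6% of all genes tested were), 15 were called lower (30.2% of all), and 21 were not called. Together 29 of 50 were called against 55.8% of all genes, so the count by itself does not set the P450 genes apart from the rest. Their median log2 fold change was -0.020, against -0.088 for all genes. The mice of the 2 groups did not overlap for 16 of the 50 (31.1% of all genes), 3 of them higher (15.5% of all) and 13 lower (15.6% of all). With anemia replicates 2 and 3 left out, 19 were called higher and 15 lower of 51 tested, against 26.4% and 27.4% of all genes. Without TMM factors, 6 were called higher (13.1% of all genes) and 22 lower (47.9% of all), while the median of all genes lay at -0.42. With doublets left out, 6 of 48 were called higher (23.5% of all genes) and 15 lower (24.9% of all). The balance of directions thus moved with the scaling and with the doublets, and changes below are relative to the TMM scale.

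**Figure D1:**
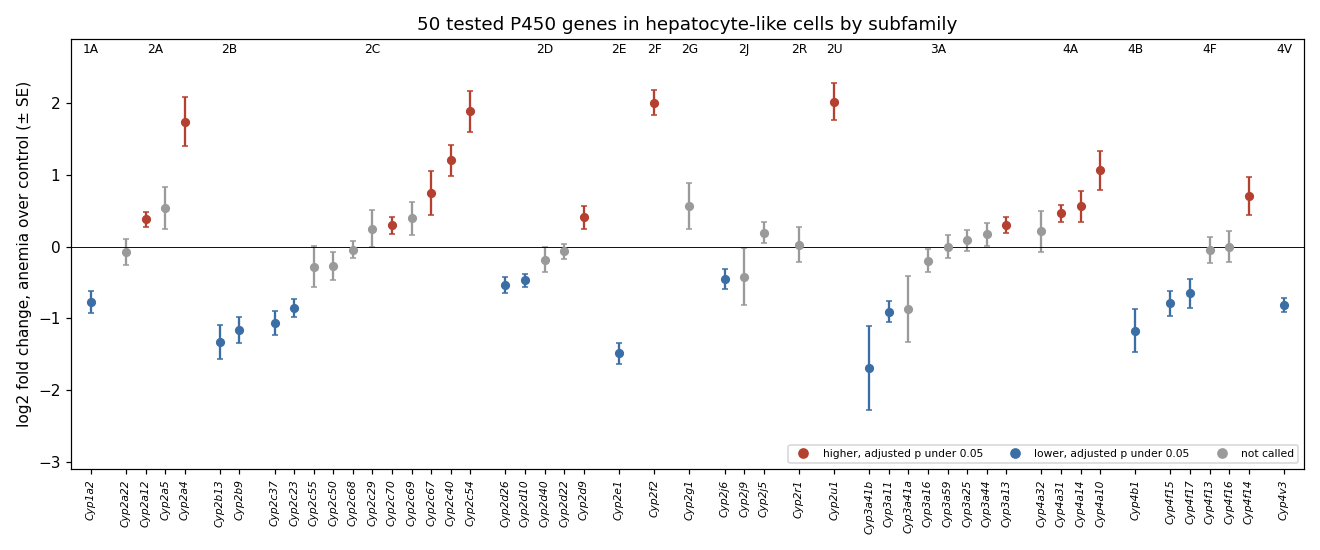
Log2 fold change of anemic over control mice in hepatocyte-like cells (vertical axis, points with bars of 1 standard error derived from the edgeR F statistic) for the 50 P450 genes tested, ordered by subfamily on the horizontal axis and coloured by call. Cyp2f2 and Cyp2u1 stand highest near 2, Cyp2e1 lies at -1.49 with a short bar, and members of a subfamily often lie on both sides of 0.

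Of the 31 genes that could not be tested, 13 had no UMI in any hepatocyte-like cell, which at 38569396 UMIs allows up to 0.0778 CPM, and 18 had 1 to 56 UMIs. Those without a UMI were spread over the Cyp1a, Cyp2b, Cyp2c, Cyp2j, Cyp2w, Cyp4a, Cyp4f and Cyp4x subfamilies. Such bounds cover counting error only. Each of the 81 genes had at least 1 UMI in some cell of the livers. Cyp2b10, a target of the receptor Nr1i3 that is named here after its values were seen, had 56 UMIs in hepatocyte-like cells. It lay between 1.37 and 5.33 CPM (median 2.44) in control and between 0 and 1.17 CPM (median 0) in anemic mice.

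Cyp2e1, which oxidizes ethanol, acetone and other small molecules, was the most abundant single gene in control mice. It fell the most among the genes that led their subfamilies. Control mice lay between 1356 and 1807 CPM (median 1635) and anemic mice between 338 and 785 CPM (median 568). Every anemic mouse was below every control mouse, and in anemic mice Cyp2c70 (791 to 1245 CPM) was above Cyp2e1. The Cyp2e1 group means were 1596 ± 169 and 567 ± 146 CPM (SD, n = 6 each), which gave a log2 fold change of -1.49 ± 0.15 (SE, edgeR quasi-likelihood, adjusted p = 6.1e-07). Cyp1a2, which oxidizes caffeine and aromatic amines and is a target of the aryl hydrocarbon receptor, fell as well. It lay between 167 and 235 CPM (median 197) in control and between 59.5 and 144 CPM (median 124) in anemic mice, without overlap (log2 fold change -0.77 ± 0.16, adjusted p = 0.00054). Its neighbour Cyp1a1 had no UMI in this class.

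**Figure D2:**
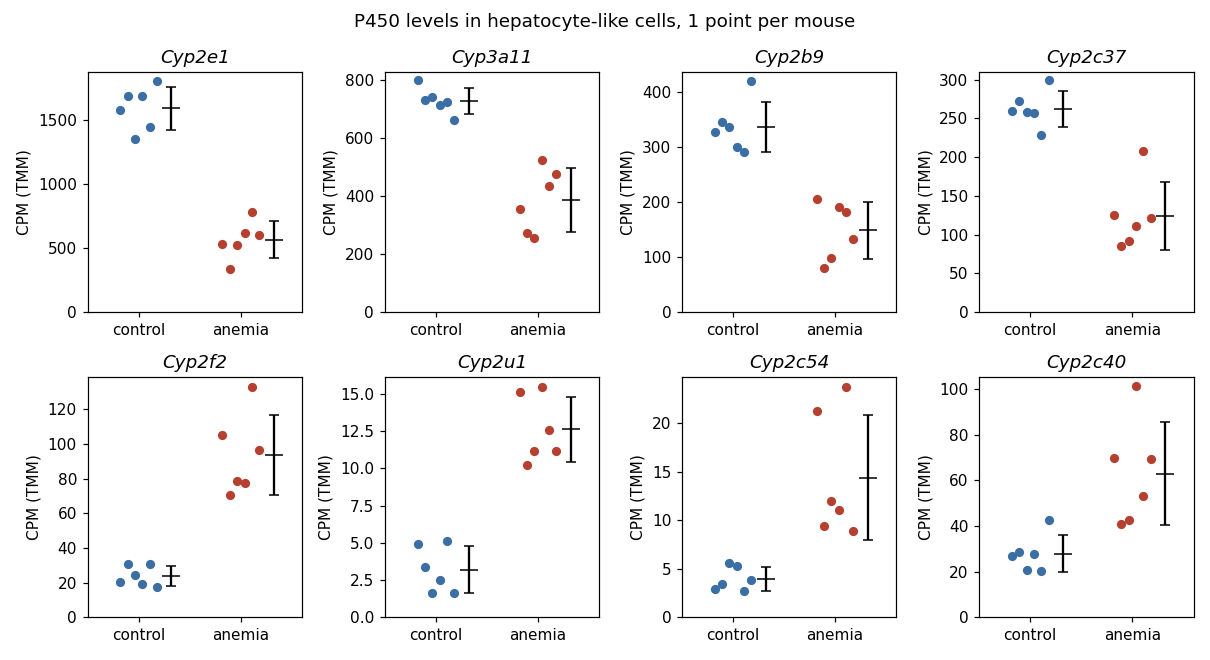
TMM-scaled CPM in hepatocyte-like cells (vertical axes, starting at 0) for 8 P450 genes, with 1 point per mouse and the mean ± SD beside each group of 6. The upper 4 genes are lower and the lower 4 higher in anemic mice, and of these 8 only Cyp2c40 has groups that overlap.

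Both tested Cyp2b genes, of the subfamily induced through Nr1i3, fell. Cyp2b9 lay between 292 and 419.7 CPM (median 332) in control and between 80.8 and 206 CPM (median 158) in anemic mice (log2 fold change -1.16 ± 0.19, adjusted p = 5.6e-05). Cyp2b13, at a lower level, went from 25.3 ± 4.76 to 9.41 ± 5.00 CPM (-1.33 ± 0.24, adjusted p = 0.00016). Neither gene overlapped between groups. Both are known to be higher in female mice, and the control group held more females. With sex as a covariate both were still called, at -1.19 and -1.27.

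The Cyp2c subfamily, whose members oxidize fatty acids, retinoids, bile acids and drugs, moved in both directions. Of its 11 tested genes, 4 were called higher (25.6% of all genes), 2 lower (30.2% of all) and 5 not. Cyp2c70, which makes muricholic acids in mice, was its most abundant member and lay between 709 and 960.0 CPM (median 756) in control and between 791 and 1245 CPM (median 959.7) in anemic mice. The groups overlapped (log2 fold change 0.30 ± 0.12, adjusted p = 0.039), and without TMM factors the value was -0.034. With sex as a covariate or with doublets left out it was not called (adjusted p = 0.13 and 0.65). Cyp2c54 lay between 2.74 and 5.63 CPM (median 3.60) in control and between 8.91 and 23.7 CPM (median 11.5) in anemic mice, without overlap (1.89 ± 0.29, adjusted p = 3.2e-05). Cyp2c40 rose from 27.8 ± 8.09 to 62.9 ± 22.6 CPM (1.20 ± 0.21, adjusted p = 0.00014), with 1 control mouse above the lowest anemic mouse. Cyp2c67 was called by a small margin, 7.04 ± 3.77 against 11.5 ± 4.24 CPM (0.75 ± 0.30, adjusted p = 0.045), and the call held in only 10 of the 23 alternatives that tested it. These counts are out of 24 alternatives on the whole class, which do not include the fit without both anemia replicates 2 and 3.

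Cyp2c37 and Cyp2c23, both of which oxidize arachidonic acid, were the Cyp2c genes called lower. Cyp2c37 lay between 228 and 299 CPM (median 259) in control and between 85.9 and 208 CPM (median 116) in anemic mice (-1.06 ± 0.16, adjusted p = 3.9e-05). Cyp2c23 went from 101 ± 10.6 to 54.5 ± 12.4 CPM (-0.86 ± 0.13, adjusted p = 2.7e-05). Neither overlapped between groups. The 5 Cyp2c genes that were not called ranged from -0.28 to 0.40 on the log2 scale.

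In the Cyp2d subfamily the most abundant genes fell. Cyp2d26 lay between 515 and 639 CPM (median 546) in control and between 294 and 439 CPM (median 414) in anemic mice (-0.54 ± 0.11, adjusted p = 0.00041). Cyp2d10 went from 191 ± 14.3 to 138 ± 17.4 CPM (-0.47 ± 0.094, adjusted p = 0.00044). Neither gene overlapped between groups. Cyp2d9, a steroid hydroxylase known to be higher in males, was called higher by a small margin, 55.8 ± 9.28 against 75.1 ± 21.1 CPM (0.41 ± 0.17, adjusted p = 0.045), with overlap. With sex as a covariate it stood at 0.46 (adjusted p = 0.03), but the call held in only 16 of the 24 alternatives. It was lost with doublets left out (0.27), without TMM factors (0.075), with limma voom (0.29), with cells of at least 1000 UMIs (0.38), with a mean of at least 50 UMIs (0.30), and without control replicate 5 or anemia replicate 3 or 4. Outside these 24, it was also lost without anemia replicates 2 and 3 together (0.34). The other 2 tested Cyp2d genes were not called.

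Cyp3a11, a main drug-metabolizing enzyme of mouse liver and a target of the receptor Nr1i2, was in control mice next to Cyp2e1 in abundance among the genes called lower. It lay between 662 and 801 CPM (median 727) in control and between 256 and 526 CPM (median 396) in anemic mice, without overlap (-0.91 ± 0.15, adjusted p = 7.8e-05). Cyp3a41b, counted at only 61 UMIs and close in sequence to Cyp3a41a, went from 2.65 ± 1.08 to 0.699 ± 0.924 CPM (-1.70 ± 0.59, adjusted p = 0.02). Cyp3a13 was called higher, 74.3 ± 7.48 against 92.0 ± 16.7 CPM (0.30 ± 0.11, adjusted p = 0.029), but stood at -0.0093 with doublets left out and -0.030 without TMM factors. The other 5 tested Cyp3a genes were not called and lay between -0.87 and 0.17.

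Cyp2f2, which oxidizes naphthalene and marks periportal hepatocytes, had the smallest adjusted p of the P450 genes. Control mice lay between 17.4 and 30.5 CPM (median 22.5) and anemic mice between 70.6 and 133 CPM (median 87.7). The groups did not overlap, with means of 23.8 ± 5.72 and 93.6 ± 23.2 CPM (2.01 ± 0.17, adjusted p = 1.5e-07). Cyp2u1, which hydroxylates long-chain fatty acids, rose by as much from a low level. It lay between 1.63 and 5.15 CPM (median 2.94) in control and between 10.2 and 15.4 CPM (median 11.9) in anemic mice, again without overlap (2.02 ± 0.25, adjusted p = 5.7e-06). In the Cyp2a subfamily, the steroid hydroxylase Cyp2a4 went from 2.20 ± 0.629 to 6.85 ± 4.13 CPM (1.75 ± 0.35, adjusted p = 0.0004). Cyp2a12, the most abundant Cyp2a gene, went from 247 ± 29.6 to 321 ± 43.3 CPM (0.38 ± 0.11, adjusted p = 0.0052). Cyp2a12 was not called without TMM factors (0.051), with doublets left out (0.11) or with cells of at most 10% mitochondrial UMIs (0.22). Both Cyp2a genes overlapped between groups, and the other 2 were not called.

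The Cyp4a genes, classical targets of the receptor Ppara that hydroxylate fatty acids, were called higher in 3 of 4 cases (25.6% of all genes tested were). None of these 3 was without overlap (15.5% of all genes were higher without overlap). Cyp4a14 was the most abundant and lay between 117 and 223 CPM (median 149.8) in control and between 107 and 351 CPM (median 258) in anemic mice (0.57 ± 0.22, adjusted p = 0.034). Cyp4a10 lay between 51.5 and 103 CPM (median 75.7) in control and between 41.9 and 257 CPM (median 158) in anemic mice (1.07 ± 0.27, adjusted p = 0.0032). For both genes the lowest anemic mouse was below every control mouse and the anemic mice were more spread. The Cyp4a14 call held in 16 of 24 alternatives, with log2 fold changes from 0.23 without TMM factors to 0.90 with cells of at most 10% mitochondrial UMIs. It was lost with doublets left out (0.40) and without control replicate 5 or anemia replicate 1, 4 or 5, among other fits. With the replicate number as a block it was lost too (adjusted p = 0.059). Cyp4a31 went from 83.0 ± 10.8 to 114 ± 22.1 CPM (0.46 ± 0.12, adjusted p = 0.0043), and was not called without TMM factors (0.13) or with doublets left out (0.28).

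Of the other family 4 genes tested, 4 were called lower (30.2% of all genes were) and 1 higher (25.6% of all). Cyp4v3, a fatty acid hydroxylase, lay between 54.5 and 68.3 CPM (median 57.0) in control and between 30.4 and 36.9 CPM (median 32.4) in anemic mice (-0.82 ± 0.092, adjusted p = 2e-06). Cyp4f15 and Cyp4f17 belong to the subfamily that hydroxylates leukotrienes and other fatty acids. Cyp4f15 went from 39.7 ± 5.38 to 21.8 ± 7.54 CPM (-0.79 ± 0.17, adjusted p = 0.00095). Cyp4f17 went from 7.42 ± 1.32 to 4.60 ± 1.05 CPM (-0.65 ± 0.20, adjusted p = 0.0089). Cyp4f14 was called higher, 12.3 ± 4.82 against 20.2 ± 9.13 CPM (0.70 ± 0.26, adjusted p = 0.032), with overlap, and not with sex as a covariate (adjusted p = 0.14) or with doublets left out (adjusted p = 0.18). Cyp4b1 went from 3.06 ± 0.526 to 1.31 ± 0.460 CPM (-1.17 ± 0.30, adjusted p = 0.003). The groups did not overlap for the 4 genes that fell (15.6% of all genes were lower without overlap). Cyp4b1 was more abundant in endothelial-like and stellate-like cells, whose markers were also lower in hepatocyte-like cells of anemic mice, and their part in this result was not tested.

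Among the Cyp2j epoxygenases, which act on arachidonic acid, Cyp2j5 was the most abundant in hepatocyte-like cells and was not called, 92.2 ± 14.4 against 105 ± 28.2 CPM (0.20 ± 0.15, adjusted p = 0.28). Cyp2j6 was called lower, 21.7 ± 3.00 against 15.3 ± 3.00 CPM (-0.45 ± 0.14, adjusted p = 0.012), with overlap, and the call held in 18 of 24 alternatives and was lost without anemia replicates 2 and 3 (-0.30). Cyp2g1 and the vitamin D hydroxylase Cyp2r1 were tested and not called, at 0.57 ± 0.32 and 0.028 ± 0.24.

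Since the 5 clusters held different shares of the cells in the 2 groups, the same test was run in each cluster alone, an alternative chosen after the data had been seen. Calls were fewer than in the whole class: 15 of 44 P450 genes were called in cluster 18 (8.21% of all genes there), 15 of 41 in cluster 20 (6.69%), 5 of 25 in cluster 21 (4.86%), 1 of 22 in cluster 22 (5.51%) and 8 of 35 in cluster 23 (6.42%). Cyp2e1 was called lower in every cluster, with log2 fold changes of -1.45, -1.31, -1.37, -0.90 and -1.31 in that order. It was the single P450 gene called in cluster 22. Cyp1a2 was called lower at -0.80, -0.90, -0.92 and -0.88 in the other 4 clusters and stood at -0.56 in cluster 22. Cyp2c37 was likewise called at -0.77, -0.75, -1.01 and -0.89, with -0.95 in cluster 22. Cyp2f2 was called higher in clusters 18 (2.71), 20 (2.00) and 23 (2.20), and stood at 0.80 and 0.42 in clusters 21 and 22.

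Of the 29 genes called in the whole class, 16 were called in at least 1 cluster, 2 (Cyp2a4 and Cyp3a41b) were too rare for a test in any, and 11 were tested but called in none. These 11 were Cyp2a12, Cyp2c67, Cyp2c70 and Cyp4a31 among the genes called higher in the class, and Cyp2b9, Cyp2b13, Cyp2d10, Cyp2j6, Cyp4b1, Cyp4f15 and Cyp4f17 among those called lower. In the whole class the groups did not overlap for any of the last 7 but Cyp2j6. Cyp2b9, at -1.16 in the whole class, lay between -0.67 and -0.20 in the 5 clusters (adjusted p = 0.45 to 0.81). Cyp2b13 stood at -0.63 and -1.11 in clusters 18 and 20, where it could be tested (adjusted p = 0.16 and 0.10). Cyp2d10 lay between -0.71 and 0.13 in the 5 clusters (adjusted p = 0.072 to 0.71). Cyp4f15 stood at 0.039, -0.58 and -0.77 in clusters 18, 20 and 23 (adjusted p = 0.94, 0.15 and 0.34). Cyp4f17 and Cyp4b1 could be tested in cluster 18 alone, at 0.28 and -0.70 (adjusted p = 0.57 and 0.38). The part of the unequal cluster shares in the whole-class values of these genes was not tested. Cyp2d26 was called lower in clusters 20 and 21 (-0.42 and -0.70) and stood at -0.028 in cluster 18. Cyp3a11 was called lower in clusters 20, 21 and 23 (-0.55, -1.28 and -0.65) and not in clusters 18 and 22 (-0.36 and -0.87). Cyp4a14 was called higher in clusters 18, 20 and 23 (0.96, 1.37 and 1.08). Cyp4a10 was called higher in clusters 18 and 20 (0.94 and 1.52) and stood below 0 in clusters 21 and 22. Cyp3a13 was called higher in cluster 18 at 1.21 and in cluster 20 at 0.57. Of the genes not called in the whole class, 3 were called higher in cluster 18: Cyp2c29 (1.00, against 0.25 in the class), Cyp3a25 (0.95, against 0.087) and Cyp3a59 (1.00, against 0.00095). Cyp3a25 was also called in cluster 20 (0.66). Cyp2c40 was called higher in clusters 18 and 20 (1.55 and 1.04), and so was Cyp2c54 (1.91 and 2.48).

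A ratio of Cyp2e1 to Cyp2f2 UMIs within a mouse does not depend on the scaling of the library. In control hepatocyte-like cells its log2 lay between 5.57 and 6.70 (median 6.03), and in anemic ones between 2.26 and 3.00 (median 2.60). The groups were far apart, with means of 6.10 ± 0.44 and 2.59 ± 0.27 and a difference of -3.51 (exact two-sided permutation test, n = 6 and 6, p = 0.00216, the smallest these numbers allow). Cyp2e1 and Cyp2f2 each did not overlap between groups and moved in opposite directions. This p was thus fixed by those results and is no further test. Within clusters 18, 20, 21, 22 and 23 the difference was -4.12, -3.35, -2.19, -1.36 and -3.68, with the same p in all but cluster 22 (exact permutation p = 0.0173).

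The share of cells with a Cyp2e1 UMI was also compared, after each cell had been thinned to 1000 UMIs and shallower cells (2890 of 7582 in control and 4516 of 10421 in anemic mice) had been left out. The share was 51.5 to 64.3% (median 58.0%) in control and 18.3 to 28.6% (median 27.1%) in anemic mice. The groups did not overlap, and the means of 57.6 ± 4.56% and 25.6 ± 3.87% differed by -32.0 percentage points (exact two-sided permutation test, n = 6 and 6, p = 0.00216). Unthinned shares were 62.7 ± 3.93% and 30.7 ± 3.51%, at median depths of 1345 and 1144 UMIs. B-like cells, which should lack the gene, gave 5.85 ± 0.730% in control and 1.25 ± 0.768% in anemic mice when thinned (8.47 ± 0.869% and 2.06 ± 1.23% unthinned, at 1334 and 1468 UMIs). The hepatocyte-like shares were thus above the background of free RNA in both groups. The difference was -34.2 points in cluster 18, -32.7 in cluster 20, -17.5 in cluster 21 and -24.7 in cluster 23, while in cluster 22 it was -4.66 (exact permutation p = 0.286).

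**Figure D3:**
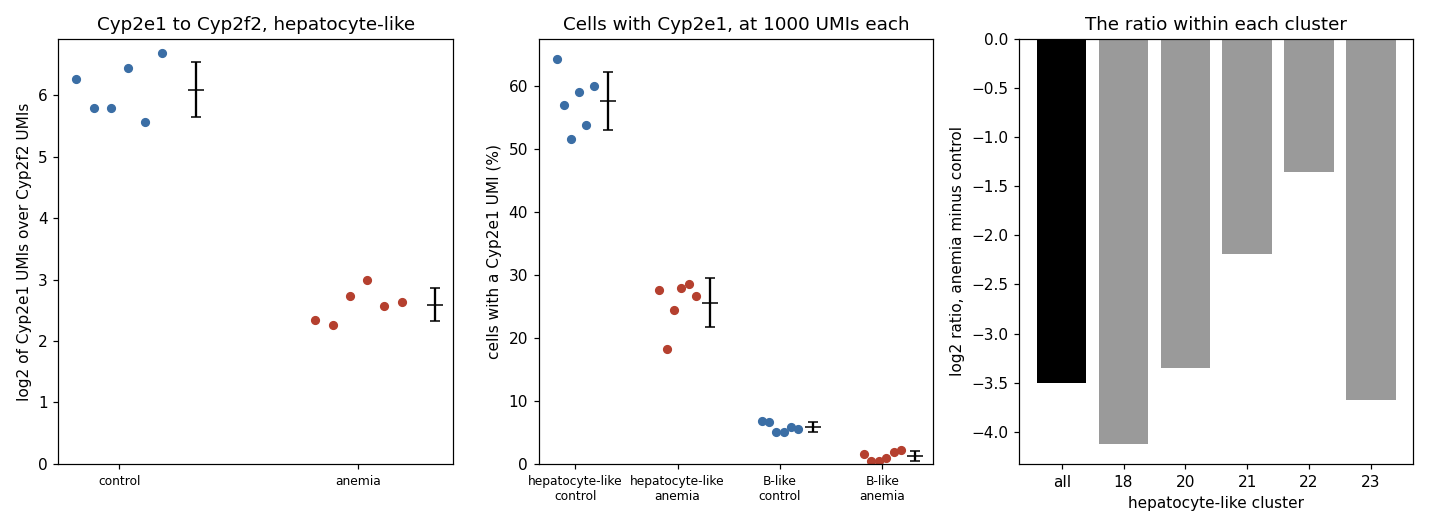
Left, log2 ratio of Cyp2e1 to Cyp2f2 UMIs per mouse in hepatocyte-like cells, and centre, percent of cells with a Cyp2e1 UMI at 1000 UMIs per cell in hepatocyte-like and B-like cells (points are mice, bars mean ± SD of 6). Right, difference of the log2 ratio between anemic and control mice in the whole class and in each of its 5 clusters: it is -3.51 in the class and between -4.12 and -1.36 in the clusters.

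Hepatocyte-like cells were also split by Glul, glutamine synthetase, which hepatocytes beside the central vein make. A Glul UMI was found in 18.2 to 26.1% of control and 13.1 to 19.8% of anemic hepatocyte-like cells. At 1000 UMIs per cell the share was 14.7 ± 1.93% in control and 11.9 ± 1.89% in anemic hepatocyte-like cells, against 7.33 ± 0.604% and 6.33 ± 0.976% in B-like and 33.9 ± 1.67% and 31.1 ± 10.1% in macrophage-like cells. A single Glul UMI in a hepatocyte-like cell can thus be free RNA or come from another cell in the droplet, and a cell without one can be pericentral all the same. The split therefore gives no position for single cells, and with cells of 1 Glul UMI left out it called 26 of 44 P450 genes (50.7% of all genes). Cells with a Glul UMI were also deeper (a median of 2356 to 4422 against 1050 to 1324 UMIs per control mouse), more often called doublets (13.5 to 30.8% against 5.16 to 14.6%) and more often in cluster 18 (43.7 to 58.7% against 23.04 to 31.4%). With doublets left out the split called 29 of 43 P450 genes (31.6% of all genes), and in cells of at least 1000 UMIs 24 of 44 (47.2% of all). The part of the clusters was not tested. Cells with and without the UMI were summed per mouse and compared within the 6 control mice, with mouse as a term of the edgeR model. Of 45 P450 genes tested, 25 were called (50.7% of all genes), 10 of them higher with Glul (24.7% of all genes) and 15 lower (26% of all).

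Genes higher with Glul in control mice included Cyp1a2 (286 ± 51.7 against 186 ± 21.1 CPM, log2 difference 0.61), Cyp2c37 (0.35), Cyp4a10 (0.59), Cyp4a14 (0.40) and Cyp2d9 (0.35). Cyp2e1 was higher by 0.30 (2059 ± 192 against 1679 ± 189 CPM), in 6 of 6 mice. Genes lower with Glul included Cyp2f2 (12.4 ± 2.02 against 38.6 ± 8.71 CPM, log2 difference -1.59, lower in 6 of 6 mice), Cyp2a12 (-1.25), Cyp2j5 (-0.87), Cyp2c40 (-0.85), Cyp2c70 (-0.69), Cyp4a31 (-0.55) and Cyp2d26 (-0.41). Of these genes, Cyp1a2, Cyp2c37 and Cyp2e1 were higher with Glul and called lower in anemic mice. Cyp2f2, Cyp2a12, Cyp2c40, Cyp2c70 and Cyp4a31 were lower with Glul and called higher in anemic mice. Cyp4a10, Cyp4a14 and Cyp2d9 were higher with Glul and called higher in anemic mice, while Cyp2d26 was lower in both comparisons. Cyp2j5 was not called between groups. Cyp2b9 and Cyp3a11 did not pass the test between cells with and without Glul (-0.022 and -0.090).

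In anemic mice the same comparison called 18 of 46 P450 genes, 13 higher with Glul (12.7% of all genes) and 5 lower (11.4%). The log2 difference was 1.07 for Cyp2e1 (853 ± 284 against 406 ± 112 CPM), 1.13 for Cyp1a2, 0.66 for Cyp2c37, 0.75 for Cyp2d9 and -1.22 for Cyp2f2. Whether the difference itself changed with anemia was tested as an interaction over 10504 genes, a test added after the data had been seen. It called 3 of 46 P450 genes (3.96% of all genes). Cyp2e1 had an interaction of 0.64 ± 0.11 (edgeR, adjusted p = 0.00031). Its log2 fold change of anemic over control mice was -0.96 in cells with Glul and -1.72 in cells without. Cells with a Glul UMI were not alike in the 2 groups: cluster 18 held 43.7 to 58.7% (median 51.0%) of them in control and 11.3 to 29.2% (median 19.1%) in anemic mice, and cluster 22 held 7.69 to 18.3% (median 10.1%) and 15.7 to 40.4% (median 22.1%). Their median depth was 2356 to 4422 UMIs per control mouse and 1139 to 2412 UMIs per anemic mouse, while cells without the UMI had 1050 to 1324 and 939.5 to 1181 UMIs. Doublets were called at 13.3 to 30.9% with and 10.5 to 26.6% without the UMI in anemic mice. The part of clusters, depth and doublets in the interaction was not tested. The interaction was 0.54 for Cyp2a12 (adjusted p = 0.012) and 0.61 for Cyp3a44 (adjusted p = 0.0066), which is named here after its values were seen and was not called between groups in the whole class. Cyp1a2 missed the threshold (0.39, adjusted p = 0.054).

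**Figure D4:**
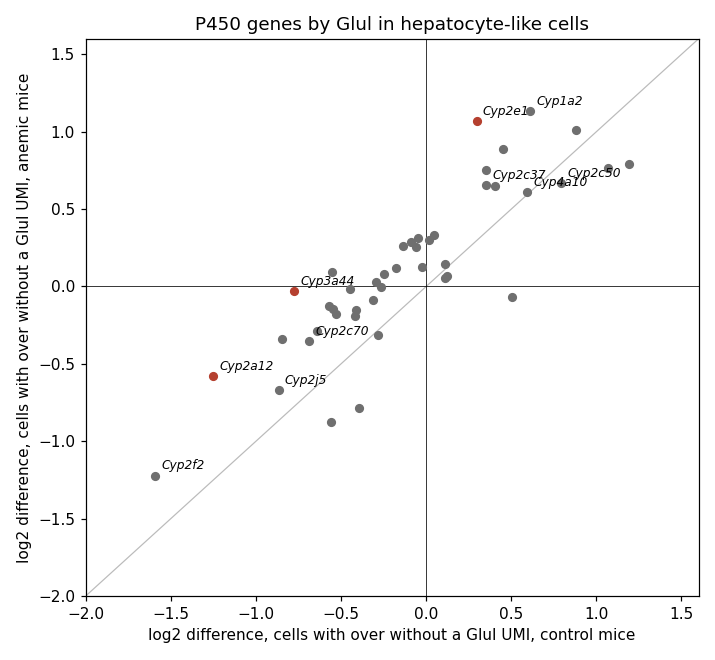
Log2 difference between hepatocyte-like cells with and without a Glul UMI in control mice (horizontal axis) and in anemic mice (vertical axis), 1 point per P450 gene tested in both, with the line of equal values. Red points mark Cyp2e1, Cyp2a12 and Cyp3a44, whose difference changed with anemia, and these 3 lie above it.

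Other genes of liver metabolism were counted by lists in the same fit. Of 16 periportal genes, 13 were called higher in anemic mice and 0 lower (median log2 fold change 1.10), led by Apoa4 (4.48, an apolipoprotein), Sds (1.99, serine dehydratase) and Pigr (1.80, an immunoglobulin transporter). Of 16 pericentral genes, 2 were called higher and 10 lower (median -0.59). Nkd1 (-1.89), the glutamate transporter Slc1a2 (-1.81) and the Wnt pathway receptor Lgr5 (-1.68) fell the most, and Oat (0.53) and Rgn (0.38) rose. Glul itself was not called (-0.085, adjusted p = 0.68). Over all genes tested, 25.6% were called higher and 30.2% lower, with a median of -0.088.

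Of 12 partners of the P450 enzymes, 6 were called higher and 4 lower (median 0.15). Por, the reductase that feeds electrons to microsomal P450s, fell, 193 ± 18.6 against 128 ± 36.6 CPM (-0.58, adjusted p = 0.0034). The other electron donor Cyb5a rose (0.74), as did Alas1, the first enzyme of heme synthesis (66.3 ± 10.6 against 105 ± 24.0 CPM, 0.66). The heme-degrading Hmox1 (-1.09) and the heme-binding Pgrmc2 (-0.37) fell. Erythroid markers in these cells, given above, were also higher in anemic mice, and their part was not tested.

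Among 28 tested nuclear receptors and liver transcription factors, 3 were called higher, Nr0b2 (1.504), Cebpb (1.17) and Foxa3 (0.47), and 11 lower (median -0.16). Ahr, the receptor behind Cyp1a2 induction, fell, 62.8 ± 10.4 against 32.8 ± 7.02 CPM (-0.94, adjusted p = 5.4e-05), and so did Nr1i3, 101 ± 17.9 against 71.7 ± 17.0 CPM (-0.46, adjusted p = 0.013). Onecut1 (-1.04) and the growth hormone receptor Ghr (-0.84) were also called lower. Nr1i2 (-0.11, adjusted p = 0.53), Ppara (-0.051, adjusted p = 0.75) and Hnf4a (0.15, adjusted p = 0.31) were not called. These calls depended on the cells and the scaling. With cells of at most 10% mitochondrial UMIs, Ppara was called higher (0.32, adjusted p = 0.044) and Nr1i3 stood at 0.0067 (adjusted p = 0.98). Without TMM factors Ppara and Nr1i2 were called lower (-0.39 and -0.44), and with doublets left out so was Nr1i2 (-0.36, adjusted p = 0.049). Hnf4a was called higher without anemia replicate 2 (0.28), and Nr1i3 was not called without control replicate 3 or 6 or anemia replicate 3 (adjusted p = 0.077, 0.063 and 0.053), nor without anemia replicates 2 and 3 (-0.25, adjusted p = 0.088).

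Of 26 tested conjugation and flavin enzymes, 8 were called higher and 11 lower (median -0.20). The glucuronosyltransferases Ugt2b35 (-1.13) and Ugt1a6a (-0.90) and the sulfotransferase Sult2a8 (-0.93) were among those that fell, and the sulfotransferases Sult1c2 (1.30) and Sult1a1 (1.01) and the acetyltransferase Nat2 (0.94) among those that rose. Of 21 tested fatty acid oxidation genes driven by Ppara, 5 were called higher, among them Pex11a (0.96), Fabp1 (0.75) and Acadl (0.69). In the same list 8 were called lower, among them Pdk4 (-1.49), Cpt1a (-0.74) and Ehhadh (-0.70), with a list median of -0.16. Of 17 tested hypoxia target genes, 9 were called higher, among them Bnip3 (2.24), Ankrd37 (2.03) and Pgk1 (1.81), and 3 lower, Vegfa (-0.62), Kdm3a (-0.57) and P4ha1 (-0.49), with a median of 0.68. Of 19 tested acute phase genes, 10 were called higher, among them Orm1 (7.01), Saa2 (5.40) and Orm2 (4.88), and 3 lower, Hamp (-2.07), Steap4 (-1.27) and Itih4 (-0.33), with a median of 0.51. Orm1 stood at 2239 and 4074 CPM in anemia replicates 2 and 3 and between 45.9 and 179 CPM in the other anemic mice, against 9.70 ± 11.6 CPM in control. Without these 2 mice Orm1 was still called (3.93), while Saa2 (0.28, adjusted p = 0.65) and Orm2 (0.55, adjusted p = 0.49) were not, nor were Oat, Pgrmc2, P4ha1 and Ugt1a6a of the lists above.

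P450 levels in other classes are CPM over all UMIs of a class, without TMM factors. So are the hepatocyte-like levels set beside them, while log2 fold changes come from TMM-scaled fits. Outside hepatocyte-like cells, P450 levels were set beside an expected level. For each class and group this was the level in hepatocyte-like cells times the share of the hepatocyte markers found in the class, as free RNA of 1 source would give. These markers stood at 1.70 to 4.96% of their hepatocyte-like level in the 13 other classes of control mice and at 0.943 to 4.16% in those of anemic mice. The mean share was lower in anemic mice in every class but cholangiocyte-like cells (3.59% in control, 4.16% in anemic mice). It was 4.96 and 3.12% in B-like, 3.73 and 1.89% in monocyte-like and 2.14 and 1.19% in endothelial-like cells, for example. For Cyp2e1, class means of 14.6 to 68.0 CPM were measured in control mice, which was 0.272 to 1.18 times the expected level. In B-like cells Cyp2e1 lay between 57.1 and 82.0 CPM (median 66.7) in control and between 4.16 and 26.0 CPM (median 16.5) in anemic mice, 0.918 and 1.06 times the expected level. A Cyp2e1 level near the expected one cannot be told from free RNA.

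Cyp2f2, which rose in hepatocyte-like cells, gives a further check, at lower counts. It was not called in any of the 5 other classes where it could be tested. In B-like cells the means of control and anemic mice were 0.855 ± 0.509 and 2.52 ± 1.33 CPM, 0.758 and 1.03 times the expected level (1.58 ± 0.43, adjusted p = 0.061). In macrophage-like cells it was 0.878 and 0.798 times the expected level (1.08 ± 0.58, adjusted p = 0.3), and in erythroid-like cells 1.84 and 1.04 times (0.37 ± 0.64, adjusted p = 0.86). Endothelial-like cells did not follow the expected level: the means of Cyp2f2 were 3.68 ± 0.493 and 2.54 ± 1.01 CPM, 7.57 and 2.68 times the expected level. The expected level was 0.486 CPM in control and higher, 0.948 CPM, with anemia, while the measured log2 fold change was -0.46 ± 0.21 (adjusted p = 0.15) in the class and -0.40, -0.55 and -0.23 in clusters 35, 40 and 41. In stellate-like cells Cyp2f2 was at 3.85 and 2.08 times the expected level (0.10 ± 0.34, adjusted p = 0.97), and in cholangiocyte-like cells, with 19 and 15 UMIs and no test, at 9.32 and 1.92 times. The expected level thus did not describe Cyp2f2 in these 3 classes, and no background reading is made from it there.

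In stellate-like cells Cyp2e1 lay between 21.96 and 36.8 CPM (median 30.0) in control and between 16.7 and 27.1 CPM (median 21.8) in anemic mice. This was 1.18 times the expected level in control and 4.29 times in anemic mice, where the next highest of the 13 classes, pre-B-like cells, stood at 1.33 times. Between groups Cyp2e1 was not called in stellate-like cells (-0.36 ± 0.14, adjusted p = 0.1). Its 2 clusters differed: in cluster 0 Cyp2e1 was called lower (23.5 ± 5.11 against 6.93 ± 3.73 CPM, -1.62 ± 0.26, adjusted p = 0.00067), and in cluster 1 it was not called (42.6 ± 10.3 against 33.2 ± 3.10 CPM, -0.33 ± 0.15, adjusted p = 0.45). The level was 0.943 and 1.41 times the expected one in cluster 0 and 1.64 and 6.20 times in cluster 1, in control and anemic mice. Cluster 1, led by the matrix genes Mfap4, Col1a1 and Lum, held 31.6 to 53.1% of the stellate-like cells in control and 55.0 to 81.8% in anemic mice. Of the stellate-like cells, 62.3% were called doublets, and the part of doublets in this level was not tested.

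Across 13 classes, 302 pairs of a gene and a class could be tested and 35 were called, 31 lower and 4 higher in anemic mice. Of the 31 lower pairs, 29 were of genes that were also called lower in hepatocyte-like cells. The share of hepatocyte markers in most classes was also lower in anemic mice, as given above. Its part in the lower pairs was not tested. Cyp2e1 was lower in the 11 classes that allowed a test and was called in 9 of them, with log2 fold changes from -1.96 in pre-B-like to -2.97 in monocyte-like cells. Of the monocyte-like cells, cluster 47 held 1.00 to 3.73% in control and 0.290 to 59.8% (median 2.94%) in anemic mice, and in cluster 46 alone Cyp2e1 stood at -2.76 (adjusted p = 0.00031). Endothelial-like cells also lay in different clusters: cluster 35 held 43.5 to 49.1% of them in control and 12.9 to 21.8% in anemic mice, and cluster 40 held 18.2 to 34.03% and 40.6 to 50.9%. Cyp2e1 was called lower in each of the 5 endothelial-like clusters that could be tested, at -2.26 to -1.81. By class and in either direction, edgeR called 8 of 44 in endothelial-like cells (18% of all genes), 6 of 34 in B-like cells (2.15%), 6 of 33 in macrophage-like cells (3.47%), 3 of 31 in stellate-like cells (15%), 3 of 25 in pre-B-like cells (1.46%), 3 of 20 in dendritic-like cells (0.697%), 2 of 12 in monocyte-like cells (1.07%), 2 of 10 in T-like cells (1.33%), 1 of 29 in NK-like cells (0.13%) and 1 of 26 in neutrophil-like cells (0.468%). Calls that were lower numbered 7 in endothelial-like (9.72% of all genes), 6 in B-like (1.14%), 5 in macrophage-like (1.62%), 1 in stellate-like (7%), 3 in pre-B-like (0.798%), 3 in dendritic-like (0.332%), 2 in monocyte-like (0.584%), 2 in T-like (1.05%), 1 in NK-like (0.0244%) and 1 in neutrophil-like (0.208%) cells. Calls that were higher numbered 1 in endothelial-like (8.3% of all genes), 1 in macrophage-like (1.84%) and 2 in stellate-like (7.95%) cells, and 0 in B-like (1.01%), pre-B-like (0.658%), dendritic-like (0.365%), monocyte-like (0.482%), T-like (0.278%), NK-like (0.106%) and neutrophil-like (0.26%) cells. In erythroid-like (28 tested, 0.708% of all genes called, 0.505% higher and 0.202% lower), cholangiocyte-like (9 tested, 0.0207% of all genes called, 0.0207% higher and 0% lower) and basophil and mast-like (1 tested, 0.154% of all genes called, 0.022% higher and 0.132% lower) cells edgeR called 0 P450 genes, and 1362, 877 and 287 of all genes had an unadjusted p under 0.05.

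Some P450 genes were higher in another class than in hepatocyte-like cells. Cyp4f18, a leukotriene B4 hydroxylase of white blood cells, had a control mean of 129 ± 30.3 CPM in basophil and mast-like cells, 104 ± 26.3 CPM in monocyte-like, 60.6 ± 4.34 CPM in neutrophil-like and 23.5 ± 2.41 CPM in B-like cells, against 0.747 CPM in hepatocyte-like cells. In anemic mice the means were 147 ± 87.3, 93.7 ± 23.3, 74.0 ± 10.4 and 27.2 ± 5.09 CPM, and none of these 4 differences was called. Cyp4f18 was called higher in macrophage-like cells, where it lay between 5.44 and 6.55 CPM (median 5.97) in control and between 6.78 and 12.3 CPM (median 9.70) in anemic mice, without overlap (0.80 ± 0.16, adjusted p = 0.021). Without control replicate 1 or anemia replicate 3 that call was lost (adjusted p = 0.06 and 0.053). The macrophage-like cells lay in different clusters in the 2 groups: cluster 3, in which monocyte markers scored next to macrophage markers, held 2.11 to 6.503% of them in control and 4.87 to 66.3% (median 10.2%) in anemic mice. In cluster 2 alone, a test added after the data had been seen, Cyp4f18 was called higher (0.83 ± 0.18, adjusted p = 0.016, with 3.53% of all genes called), and in cluster 3 it stood at -0.39 (adjusted p = 0.98). Cyp4f16 stood at 28.4 ± 9.16 CPM in control monocyte-like cells. Cyp4f13 stood at 16.7 ± 2.38 CPM in control macrophage-like cells against 16.0 CPM in hepatocyte-like cells, which is within the spread between mice.

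Endothelial-like and stellate-like cells carried Cyp4b1, a fatty acid and drug hydroxylase. In endothelial-like cells it lay between 51.6 and 84.8 CPM (median 64.9) in control and between 28.4 and 110.1 CPM (median 47.3) in anemic mice, and it was not called (-0.11 ± 0.27, adjusted p = 0.81). In stellate-like cells it fell, lying between 22.05 and 37.8 CPM (median 29.3) in control and between 6.72 and 20.8 CPM (median 16.2) in anemic mice, without overlap (-0.96 ± 0.21, adjusted p = 0.0062). The stellate-like class joined cluster 0, led by Colec11 and Reln, and cluster 1, whose share was larger in anemic mice, as given above. Within cluster 0 Cyp4b1 stood at -0.49 (adjusted p = 0.26, with 6.43% of all genes called) and within cluster 1 at -0.064 (adjusted p = 0.99, with 0.44% called), so it was called in neither. Cyp1b1, which oxidizes estrogens and polycyclic aromatic compounds, was too rare for a test in hepatocyte-like cells. In stellate-like cells it rose, lying between 3.33 and 6.55 CPM (median 4.30) in control and between 7.83 and 23.9 CPM (median 19.8) in anemic mice, without overlap (2.00 ± 0.24, adjusted p = 0.00013). Within cluster 1 the difference was smaller and still called (1.04 ± 0.17, adjusted p = 0.0075), and in cluster 0 Cyp1b1 was too rare for a test. Cyp1b1 was also called higher in endothelial-like cells (1.03 ± 0.25, adjusted p = 0.013), and not with doublets left out (0.69, adjusted p = 0.2) or in cluster 41 (0.32, adjusted p = 0.71), the endothelial-like cluster where it could be tested. Cyp4f17 was called higher in stellate-like cells (0.81 ± 0.24, adjusted p = 0.034), and no longer with doublets left out (adjusted p = 0.28), with sex as a covariate (adjusted p = 0.094) or within cluster 0 or 1 (0.60 and 0.22).

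In cholangiocyte-like cells 7 P450 genes had a control mean of at least 10 CPM and above that of hepatocyte-like cells, although the class held only 669 cells and 73.7% of them were called doublets. Cyp2j6 stood at 59.9 ± 11.8 CPM and Cyp2s1 at 37.5 ± 14.7 CPM, against 20.5 and 0.0510 CPM in hepatocyte-like cells. Cyp4f14 stood at 19.1 ± 5.13 CPM against 11.7 CPM, Cyp4f16 at 11.7 ± 5.32 CPM against 4.67 CPM, and Cyp2c65 at 11.7 ± 6.70 CPM with no UMI in control hepatocyte-like cells. Cyp4f13 (20.3 ± 4.95 against 16.0 CPM) and Cyp4f17 (12.9 ± 7.77 against 7.04 CPM) differed by less than the SD between mice. Cyp2j5 lay between 38.1 and 78.9 CPM (median 56.5) in control and between 81.3 and 108 CPM (median 97.1) in anemic mice. These groups did not overlap, but the gene missed the threshold over all genes (0.74 ± 0.17, adjusted p = 0.28). Cyp4v3 stood at 40.6 ± 5.38 CPM in control macrophage-like and 41.2 ± 6.61 CPM in control monocyte-like cells, and in neither class was it called between groups (0.019 ± 0.11 and 0.31 ± 0.28).

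**Figure D5:**
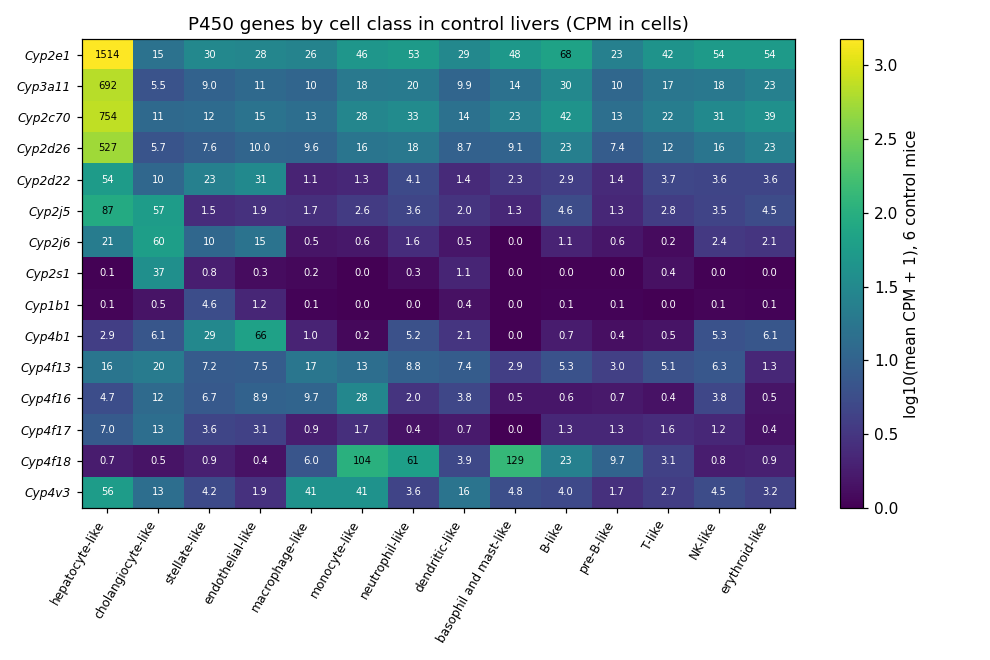
Mean CPM over the 6 control mice of 15 P450 genes (rows) in 14 cell classes (columns), with the value in each cell and colour on a log10(CPM + 1) scale. Cyp2e1, Cyp3a11, Cyp2c70 and Cyp2d26 are in every class at a small part of their hepatocyte-like level, while Cyp4f18, Cyp4b1, Cyp1b1 and Cyp2s1 are highest in other classes.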

How the data were processed

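Single-cell RNA was measured in the livers of 12 mice, 6 per group. The authors deposited filtered UMI counts per gene and barcode from Cell Ranger 7.0.0 (per the file headers), and the submitters' processing notes name Seurat and mm10. Whether intronic reads were counted is not given in the sources used here. The labels and the series text differ in the chemistry version. Barcodes below 500 or above 50000 UMIs or above 50% mitochondrial UMIs were left out. Cells were clustered with scanpy 1.11.5 (Leiden, resolution 2, 2000 variable genes, 20 components, 20 neighbours) without the 81 P450 genes, which gave 61 clusters. Classes were named from fixed markers, 12830 cells stayed unnamed, and called doublets were kept.

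UMIs were summed per mouse and class without mitochondrial and ribosomal protein genes, and tested with edgeR 4.0.16 (TMM, quasi-likelihood, mean of at least 5 UMIs, Benjamini-Hochberg adjusted p under 0.05). DESeq2 1.42.0 and limma 3.58.1 were alternatives. Standard errors given with edgeR were derived from its F statistic, as the absolute log2 fold change over the square root of F. They can be too small where the fold change is near 0. On simulated counts for the hepatocyte-like comparison over 11942 genes, 174 of 200 changed genes were recovered with 13 false calls. In the data 55.8% of genes were called, so these figures do not carry over to the real fit and do not test its scaling. Single values were compared by exact permutation. Named genes were the P450 genes called in hepatocyte-like cells, the most abundant of a subfamily, and those with at least 10 CPM in another class and more than in hepatocyte-like cells. For each list, up to 3 called genes per direction with the largest fold change were named, and Por, Alas1, Glul, Ahr, Nr1i2, Nr1i3, Ppara and Hnf4a in any case. Cyp2b10, Cyp3a44 and the calls and values in other classes outside this rule (Cyp1b1, Cyp2j5 and Cyp4v3, for example) were added after they were seen. One gene that the rule names is not reported here. The members and lists were chosen with earlier results of these data known. The labels do not say that mice with the same replicate number belong together: their deviations from the group means correlated at -0.071 to 0.26. Bounds from 0 counts cover counting error only, while SDs and standard errors hold the spread between mice.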

Additional observations from a re-analysis of the deposited data

Results flagged for a closer look

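In hepatocyte-like cells, 1 mouse stood apart from the other 5 of its group (by Dixon's criterion) for several genes. Cyp2c37 was at 208 CPM in anemia replicate 5, against 85.9 to 126 CPM in the other anemic mice. Cyp2c40 was at 42.7 CPM in control replicate 6, against 20.2 to 28.6 CPM in the others. Cyp2d26 was at 639 CPM in control replicate 3, against 515 to 554 CPM, and the summed level of the Cyp2d subfamily in the same mouse was 929 CPM, against 805 to 844 CPM. Cyp4f17 was at 2.55 CPM in anemia replicate 2, against 4.68 to 5.47 CPM. Cyp4v3 was at 68.3 CPM in control replicate 2, against 54.5 to 58.7 CPM, and its unscaled sum was 64.6 CPM, against 51.8 to 54.9 CPM. The unthinned share of cells with a Cyp2e1 UMI was 24.1% in anemia replicate 2, against 30.2 to 33.6% in the other anemic mice. In cholangiocyte-like cells Cyp2s1 was at 8.75 CPM in control replicate 2, against 35.1 to 47.7 CPM. These were 9 of 124 groups examined, and chance flags about 5% of groups.

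For 3 genes the difference between hepatocyte-like cells with and without a Glul UMI was tested as an interaction with edgeR and differed between anemic and control mice. The log2 interaction was 0.64 for Cyp2e1, 0.61 for Cyp3a44 and 0.54 for Cyp2a12.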

How the results depend on the processing

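Of the 29 P450 genes called in hepatocyte-like cells, 12 of 15 lower and 6 of 14 higher stayed called in all of the 24 whole-class alternatives in which they were tested (the fit without anemia replicates 2 and 3 is not among them). The count was 17 of 33 tested with a mean of at least 50 UMIs, and 19 of 46 in cells without a Glul UMI (42.2% of all genes). In clusters 18, 20, 21, 22 and 23 alone, which test fewer cells and genes, it was 15, 15, 5, 1 and 8, with the shares of all genes given above. Leaving out 1 mouse gave 24 to 33 called P450 genes. Counts in this section without a share of all genes say only how the calls moved, not how P450 genes stand against others. With doublets left out 6 were higher (23.5% of all genes) and 15 lower (24.9%), and with sex as a covariate 10 (24.2%) and 15 (28%). The 35 pairs called in other classes became 11 with a mean of at least 50 UMIs, 60 without a filter and 14 to 42 without 1 mouse: 14 without control replicate 1, 20 without control replicate 5 or anemia replicate 3, 22 without control replicate 3, and 23 without control replicate 4 or 6. The number of calls in other classes thus depended on which mouse was left out. Leaving out 1 mouse gave 96 to 105 list genes (106 with all mice), 21 to 26 genes by Glul (25 with all mice), -3.61 to -3.38 for the log2 ratio and -33.2 to -30.6 points for the share of cells with Cyp2e1. In cluster 22 the share differed by -4.66 points.

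Same-numbered mice were not shown to be paired, and 2 of 6 correlated best with their own number. With the replicate block, 28 P450 genes, 37 pairs and 104 list genes were called, and the ratio (-3.51) and the share (-32.0) kept their values at an exact permutation p of 0.0312, the smallest it allows. Without the mouse as a replicate block, 25 genes were called by Glul.

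Some log2 fold changes turned sign, and the cause was not tested. In cluster 18 these were Cyp2d10 (0.13), Cyp2j6 (0.034), Cyp4f15 (0.039) and Cyp4f17 (0.28), and in cluster 20 Cyp2j6 (0.065). In cluster 21 they were Cyp2a12 (-0.16), Cyp2c70 (-0.018) and Cyp4a10 (-0.12), in cluster 22 Cyp2a12 (-0.10), Cyp2c70 (-0.26) and Cyp4a10 (-0.046), and in cluster 23 Cyp2a12 (-0.021). Without TMM factors Cyp2c70 stood at -0.034, Cyp3a13 at -0.030 and Hnf4a at -0.18. With doublets left out Cyp3a13 stood at -0.0093 and Hnf4a at -0.056. At most 10% mitochondrial UMIs gave Nr1i2 0.24, Nr1i3 0.0067 and Ppara 0.32, and no filter gave Ppara 0.031. Without 1 mouse, Glul ranged from -0.21 to 0.029 and Nr1i2 from -0.18 to 0.012. The Ppara log2 fold change in hepatocyte-like cells ranged from -0.083 to 0.086. None of these 3 was called in any fit without 1 mouse, while Ppara was called with at most 10% mitochondrial UMIs (adjusted p = 0.044). Without anemia replicates 2 and 3 Ppara stood at 0.15 and Nr1i2 at 0.0026, 34 P450 genes, 30 pairs and 98 list genes were called, and the ratio (-3.46) and the share (-29.9 points) had an exact permutation p of 0.0048. In macrophage-like cells Cyp4f18 turned to -0.39 in cluster 3.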
